A study of Zea mays with 36 samples.

Results

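The genes described here are 150 maize genes whose leaf transcript level was above the starting level at each later sampling of a nitrate withdrawal and resupply course, out of 43459 genes in the leaf table. They were chosen by their leaf values. Each had a mean of at least 5 TPM at some time, where TPM is a transcript level scaled to the same total in each library. Each also had a mean log2(TPM + 1) at least 0.8 above 0 h at each of the 5 later samplings (0.5, 3, 24, 24.5 and lastly 48 h), and 0 h libraries that all lay below the libraries of 0.5, 3 and 24 h. Of 17057 leaf genes at that level, 250 had the rise at all 5 times and 228 met the whole rule, and the 150 with the largest smallest rise were taken. Every leaf difference from 0 h given below is therefore a description of how the genes were chosen and carries no test. The root values were not used in the choice.

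Plants were of the inbred line B73, grown in hydroponic tanks with nitrate for 12 days under 16 h of light and 8 h of dark. The 3 deprivation groups were sampled at 0.5, 3 and 24 h after a move to a solution whose nitrate salts had been replaced. The 2 recovery groups were sampled after nitrate was returned at 24 h, at 24.5 and 48 h on the time labels, and plants under normal nitrogen were taken at 0 h. Leaf and root were each represented by 3 replicates per time, 36 libraries in all, and per the labels each replicate was tissue pooled from 5 plants, where the methods of the study give a larger pool. The labels do not say whether replicates came from separate tanks, so p-values measure the spread between these pools. The time label of 48 h is read here as hours after withdrawal, as the methods of the study give it, although another reading of the label text is possible. No plants that stayed on nitrate were sampled at the later times in the files used here. Samplings at 0.5, 3 and 24.5 h fell at other hours of the day than 0 h. There, time after withdrawal, hour of day and plant age cannot be told apart. By the labels, 24 and 48 h are whole days after 0 h, but no clock hour of harvest is known here. At these times as well, time after withdrawal cannot be told apart from plant age or from a difference in hour of harvest.

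Nitrate is taken up by roots, reduced in root and leaf, and acts as a signal that changes transcript levels within minutes. Leaf transcripts also follow the circadian clock, a loop in which the MYB-type repressor LHY peaks around dawn and the pseudo-response regulators (PRR proteins, called APRR in several annotations) follow through the day. Adagio protein 3 is the blue-light receptor known as FKF1 in Arabidopsis, an F-box protein that targets other proteins for degradation in the afternoon.

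In leaf, the light-harvesting gene LHCB5 ranged between 481.8 and 1423 TPM, and in root between 0 and 17.96 TPM. The root nitrate transporter gene NRT2.1 stayed at or under 2.36 TPM in leaf and reached 228.1 TPM in root, so the tissue labels fit these markers. No leaf or root library was a copy of another. Leaf libraries of 24.5 h and 48 h did not group tightly for the members. At 48 h, replicate 3 had the highest value of the 3 for 136 of the 150 genes, and at 24.5 h replicate 1 had it for 122. The mean over members of log2(TPM + 1) minus the 0 h mean was 1.38, 1.22 and 2.56 at 48 h, and 2.45, 1.99 and 1.29 at 24.5 h. The median SD of a member among replicates was 0.67 at 48 h and 0.64 at 24.5 h on the log2 scale, against 0.20 at 24 h. Over all 23268 genes tested in leaf, the median SD was 0.27, 0.27 and 0.18 at 48, 24.5 and 24 h. Without replicate 3 of 48 h, 182 genes met the rule, and 127 of the 150 were still among the first 150. Without replicate 1 of 24.5 h, 220 genes met it, and 146 of the 150 were still among the first 150.

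**Figure D1:**
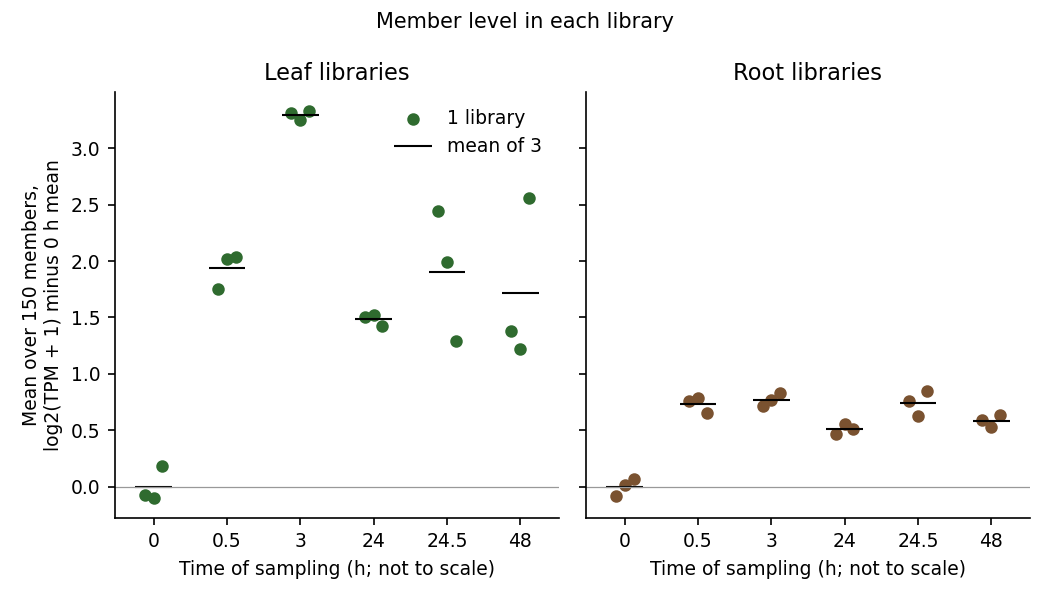
Mean over the 150 members of log2(TPM + 1) minus the 0 h mean, in each leaf library (left) and each root library (right) at the 6 times, with points for libraries and bars for the mean of 3. Leaf libraries of 3 h lie between 3.25 and 3.33, those of 48 h spread between 1.22 and 2.56, and root libraries of the later times lie between 0.47 and 0.84.

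The shape of the leaf course was shared by most members. On the log2(TPM + 1) scale, the median difference from 0 h over members was 1.72 after 0.5 h and 2.86 after 3 h of withdrawal, 1.39 after 24 h, and 1.79 and 1.61 in the recovery samplings of 24.5 and 48 h. Over all 17057 genes at the same level, the medians were 0.04, 0.22, 0.15, 0.24 and 0.27 in the same order of times. The largest of the 5 differences fell at 3 h for 140 of the 150 members, and the smallest at 24 h for 91, at 48 h for 30 and at 0.5 h for 24. The genes were thus above 0 h throughout, but at 24 h a member kept a median of 47.2% of its 3 h difference. In bulk tissue, more RNA per cell and more cells of an expressing type cannot be told apart.

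The chosen set had no sharp edge. The smallest rise ran from 3.25 in the first gene to 0.95 in the last. The last 2 genes inside had smallest rises of 0.957 and 0.950, and the first 2 outside had 0.946 and 0.945. Beyond what the rule required at 0.5, 3 and 24 h, all 3 libraries lay above all 3 of 0 h for 149 members at 24.5 h and 146 at 48 h.

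**Figure D2:**
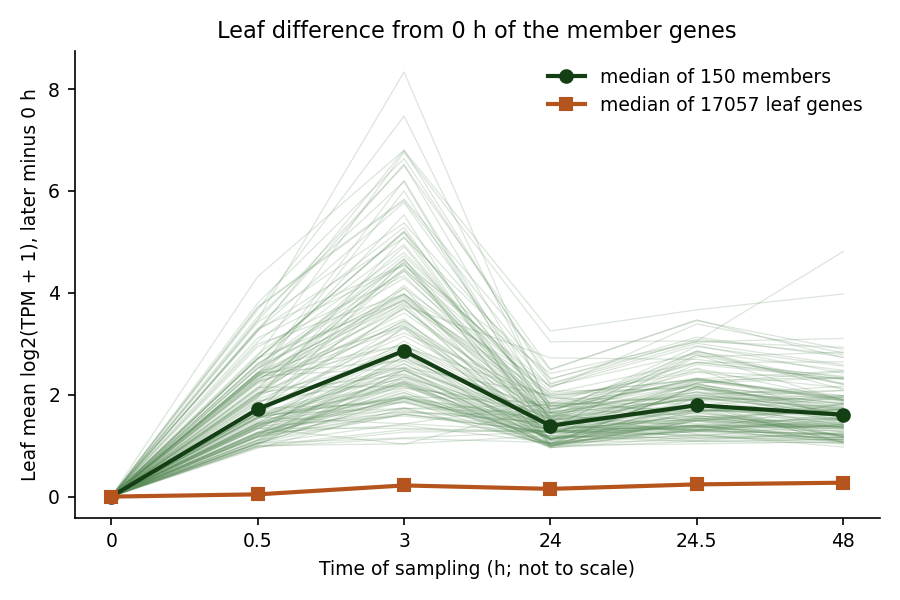
Leaf mean log2(TPM + 1) minus the 0 h mean against time of sampling, with a thin line for each of the 150 members, their median (circles) and the median of 17057 leaf genes of at least 5 TPM (squares). The member median is 2.86 at 3 h and 1.39 at 24 h, and the median of all genes stays at or under 0.27.

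Levels differed widely among members. At 3 h, 36 members averaged 100 TPM or more, whereas at 0 h 49 averaged under 1 TPM and 3 were listed at 0 in all libraries. The median member averaged 45.0 TPM at 3 h and 3.44 TPM at 0 h. The most abundant one, which no source used here annotates, averaged 4657 TPM at 3 h and 346.4 TPM at 0 h. It was also the most abundant member in root, with 3281 TPM at 3 h and 1746 TPM at 0 h.

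Between leaf time points after withdrawal, calls were made in limma at a Benjamini-Hochberg adjusted p under 0.05 and a log2 fold change past 1. These comparisons share libraries with the choice of the genes, so the counts are given as a description. At 24 h against 3 h, 99 of the 150 were called lower and 0 higher, where 6.06% of 23268 tested genes were called lower and 3.21% higher. At an unadjusted p under 0.05, 123 members were lower and 1 was higher, beside 21.9% and 12.9% of genes. The median difference of the members was -1.51, and that of all tested genes -0.08. At 24.5 h against 24 h, 0.5 h after nitrate came back, 0 members were called in either direction, while 0.0215% of genes were called higher and 0.0043% lower. With an unadjusted p under 0.05, 22 members were higher and 1 was lower, beside 9.64% and 2.65% of genes. At 48 h against 24 h, 0 members were called in either direction, while 0.241% of genes were called higher and 0.0903% lower, and 17 members were higher and 2 lower at an unadjusted p under 0.05, beside 14.7% and 3.89% of genes. By direction alone, 130 members had a higher mean at 24.5 h than at 24 h, and 109 at 48 h than at 24 h, where 62.0% and 64.6% of all genes of at least 5 TPM did. Leaving out replicate 3 of 24.5 h gave 2 members called higher at 24.5 h, and leaving out replicate 2 of 48 h gave 1 called higher at 48 h.

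Few members carry a name. Only 35 of the 150 had a description in the tables of the study and 1 had a symbol, and 19 could be linked to a RefSeq gene. Descriptions exist only for genes that the study itself listed as changed in these samples, so the mix of names is not independent evidence of what the set does. By words in the descriptions, 8 members fell in a signalling group, 6 in the circadian clock, 5 in protein quality, 4 in chloroplast and photosynthesis, 2 in RNA and translation, 1 in transport and 1 among transcription factors, with some genes in more than 1 group and 14 in none. The pseudo-response regulators of the clock group also counted as signalling, by the words response regulator, and adenylate kinase 6 by the word kinase. None fell in cell wall and secondary metabolism. None of the 16 nitrate assimilation genes, 15 nitrogen transporter genes, 8 amino acid metabolism genes, 5 carbon metabolism genes or 6 stress genes of the study's network was a member, nor was any gene of its 6 other short lists of 1 to 7 genes, and of its 302 transcriptional regulation genes 1 was. Members made up 0.345% of the leaf table, so a count of 0 in lists this short is close to that share.

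The clock group held 2 genes described as Adagio protein 3, 2 as APRR1 (TOC1 in Arabidopsis), 1 as APRR9 and 1 as APRR5 (PRR95 in the leaf description). The first Adagio protein 3 gene, Zm00001eb113780 (chromosome 2, 231385592 to 231389951 on assembly NAM-5.0, RefSeq), had leaf values, in TPM, of 3.18, 2.13 and 4.95 (0 h), 35.0, 44.1 and 45.0 (0.5 h), 94.2, 97.0 and 106.6 (3 h), 21.3, 25.3 and 19.2 (24 h), 49.8, 34.2 and 23.3 (24.5 h), and 25.2, 19.8 and 62.1 (48 h). All 15 later libraries lay above the 3 at 0 h. The second, Zm00001eb201580, had 58.9, 53.7 and 59.0 TPM at 3 h, and 8.03, 8.65 and 6.20 TPM at 24 h, against 0.700, 0.428 and 1.09 TPM at 0 h. Its levels at 24.5 h (21.4, 13.3 and 7.82 TPM) overlapped those at 24 h.

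The pseudo-response regulators also had their highest leaf mean at 3 h and their lowest later mean at 24 h. One APRR1 gene, Zm00001eb184870 (Orphan90 in the study, chromosome 4, 145827887 to 145830889), had 22.7, 26.0 and 22.0 TPM at 3 h and 5.37, 4.31 and 3.38 TPM at 24 h, against 0.659, 1.05 and 0.987 TPM at 0 h in leaf. The other, Zm00001eb247330, had 70.4, 68.7 and 78.0 TPM at 3 h and 6.76, 3.31 and 2.68 TPM at 24 h, against 1.28, 0.942 and 1.19 TPM at 0 h. Both had all later libraries above those of 0 h.

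APRR9 and APRR5 started higher. APRR9, Zm00001eb092230 (chromosome 2, 145014152 to 145019341), had 69.1, 64.4 and 65.1 TPM at 3 h and 19.9, 18.8 and 16.1 TPM at 24 h, against 6.32, 6.62 and 10.3 TPM at 0 h. APRR5, Zm00001eb103490, had 152.1, 155.7 and 143.2 TPM at 3 h and 56.2, 63.2 and 53.8 TPM at 24 h, against 19.9, 26.7 and 32.9 TPM at 0 h.

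In root, 5 of these 6 clock genes were called higher at 0.5, 3 and 24.5 h. At 24 h and at 48 h, 4 of them were. Of all 26245 genes tested in root, 1.77%, 1.12%, 1.19%, 2.99% and 1.04% were called higher at the later times in order. The rule for members used no root value, but the clock group rests on descriptions. All 6 genes have one from the study's list of genes changed in these root samples. Root calls of the group are therefore a description, and setting them beside all genes is not an independent test. The first Adagio protein 3 gene had 49.7, 41.7 and 52.6 TPM at 3 h in root, against 3.32, 4.83 and 6.22 TPM at 0 h, which gave a fitted log2 change of 3.11 ± 0.22 (SE, adjusted p = 8.68e-07). Zm00001eb247330 had 69.2, 74.5 and 69.5 TPM at 3 h, against 4.86, 9.82 and 9.36 TPM at 0 h, which gave a fitted log2 change of 3.05 ± 0.18 (SE, adjusted p = 1.4e-07). The groups did not overlap for either gene, and at 48 h the root log2 fold changes were still 2.23 ± 0.22 for the first (adjusted p in limma = 0.000104) and 1.66 ± 0.18 for the second (adjusted p in limma = 0.000154). APRR9 was not called in root at any time, with 33.4, 32.5 and 29.8 TPM at 3 h, against 14.5, 18.1 and 21.9 TPM at 0 h. Its fitted log2 change at 3 h, 0.795 ± 0.143 (SE, adjusted p in limma = 0.00184), was above 0 but under the limit of 1.

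Described genes with clock words numbered 9, and the other 3 were all described as protein LHY and were lower, not higher, after 0 h. MYBR79 (Zm00001eb172450) had leaf values of 343.4, 336.2 and 334.3 TPM at 0 h, 5.24, 5.12 and 4.12 at 3 h, 147.1, 139.1 and 196.0 at 24 h, and 101.5, 253.0 and 54.9 at 48 h. In root it had 3.26, 2.27 and 1.92 TPM at 3 h, against 38.6, 32.0 and 31.2 TPM at 0 h, which gave a fitted log2 change of -3.34 ± 0.25 (SE, adjusted p = 1.44e-06). The neighbouring identifiers Zm00001eb415760 and Zm00001eb415770 were called lower in root at all 5 times as well, at 3 h by log2 values of -2.98 and -2.64. In leaf at 48 h, replicate 3, the library with the highest member level, had the lowest value of each of the 3 LHY genes, at 54.9, 163.1 and 150.9 TPM. At 24.5 h the order differed. Replicate 1 had the highest member level there, but was lowest only for Zm00001eb415760 (186.8 TPM, against 362.5 and 190.9). MYBR79 was at 86.5, 191.4 and 83.6 TPM and Zm00001eb415770 at 200.1, 333.9 and 146.8 TPM, both lowest in replicate 3. The 6 Adagio and PRR genes lay above 0 h in leaf because the rule chose them so. The 3 LHY genes lay below it at each time, and have a description only because the study listed them as changed.

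**Figure D3:**
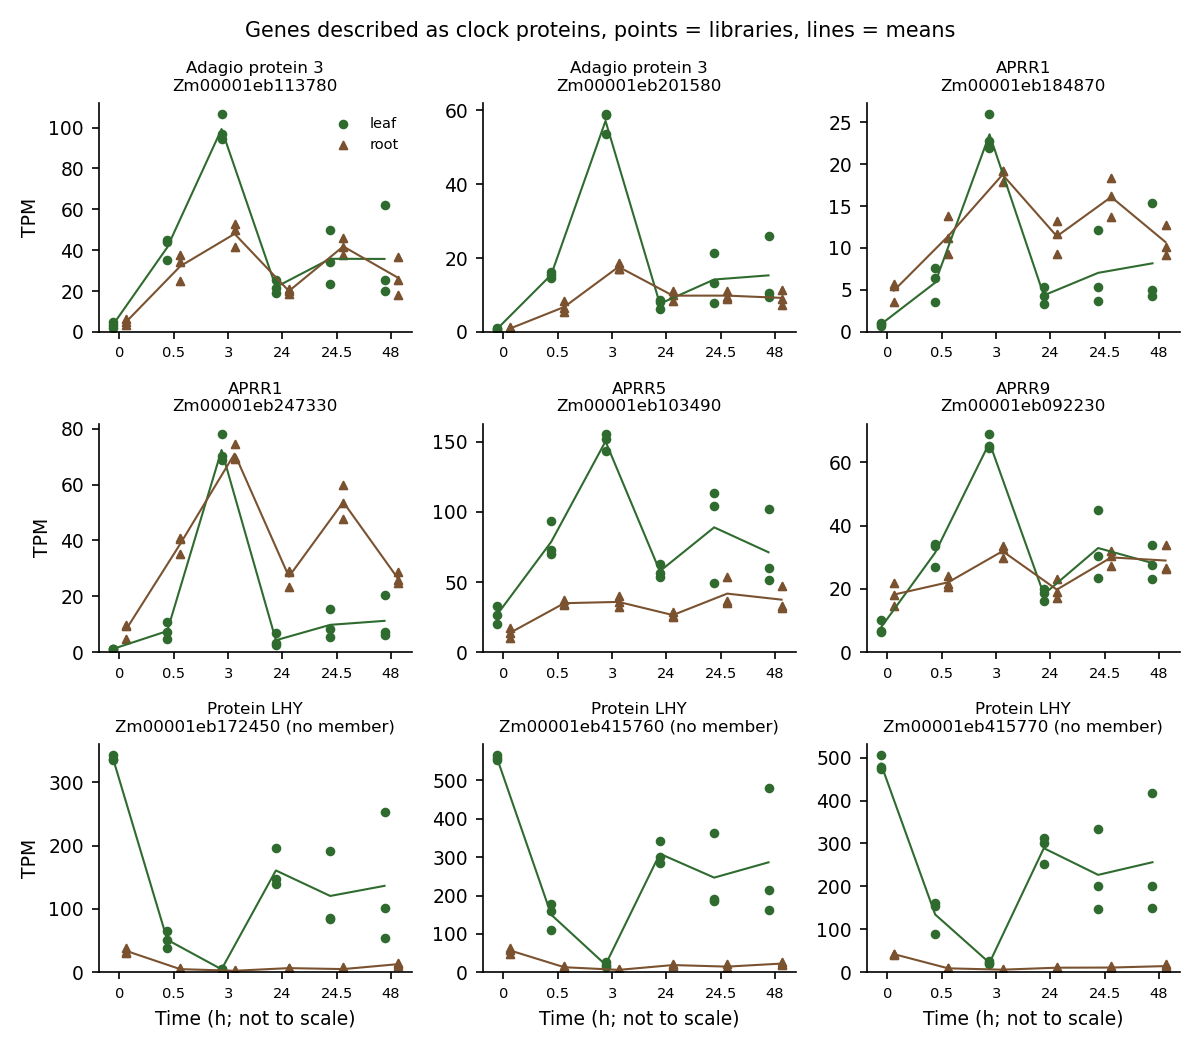
TPM against time of sampling for the 6 members described as clock proteins (upper rows) and the 3 genes described as protein LHY (bottom row), with points for libraries and lines through means, leaf as circles and root as triangles. Leaf APRR5 reaches 143.2 to 155.7 TPM at 3 h, while leaf MYBR79 is at 4.12 to 5.24 TPM at that time.

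The 2 members with the largest smallest rise have neighbouring identifiers and no description. Zm00001eb159850 had leaf values, in TPM, of 9.02, 10.1 and 11.0 (0 h), 170.0, 200.8 and 304.8 (0.5 h), 1181, 1241 and 1250 (3 h), 94.6, 119.0 and 98.9 (24 h), 175.1, 106.1 and 143.8 (24.5 h), and 127.4, 117.6 and 340.0 (48 h). Zm00001eb159860 had 137.8, 82.8 and 158.3 TPM at 3 h and 21.7, 33.6 and 39.9 TPM at 48 h, against 0, 0.173 and 0.238 TPM at 0 h. The next identifier, Zm00001eb159870, is described as a DUF538 family protein, a domain of unknown function, and was also a member, with 9.92, 7.66 and 9.92 TPM at 3 h, while it was listed at 0 in all 0 h leaf libraries.

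All 3 neighbours also rose in root. Zm00001eb159850 had 413.1, 339.4 and 572.7 TPM at 3 h in root, against 59.0, 94.9 and 94.8 TPM at 0 h (log2 change 2.40 ± 0.31 by limma, adjusted p = 0.000165). It was called higher at all 5 times. Zm00001eb159870 was called higher in root at 3, 24 and 48 h, by 2.09 ± 0.36 log2 units at 3 h (adjusted p in limma = 0.00143). Among all members there were 11 pairs with identifier numbers no more than 20 apart, holding 16 genes. In 1 of these pairs the levels stayed within a ratio of 1.2 in each later leaf library, so reads shared between copies cannot be told apart from separate expression there.

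In the protein quality group, the J-domain co-chaperone ERDJ3B (Zm00001eb161610), a helper of the endoplasmic reticulum chaperone BiP in Arabidopsis, had 71.7, 65.8 and 46.9 TPM at 3 h in leaf and 4.19, 2.68 and 2.23 TPM at 24 h, against 0, 0 and 0.423 TPM at 0 h. It rose in root at all 5 times, with 13.1, 14.9 and 12.0 TPM at 3 h, against 1.90, 2.13 and 1.75 TPM at 0 h (log2 change 2.29 ± 0.24 by limma, adjusted p = 3.17e-05). A second gene with a J domain, Zm00001eb433640, had 296.4, 225.8 and 370.7 TPM at 3 h in leaf, against 0.506, 1.03 and 0.477 TPM at 0 h. Neither exceeded 1.03 TPM at 0 h in leaf, and the second had 4.33, 6.31 and 3.35 TPM at 24 h.

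The proteases of this group moved over a smaller range. Cysteine protease RD19A (Zm00001eb240700), named for a drought-induced Arabidopsis enzyme, had 1235, 1147 and 1247 TPM at 3 h and 498.3, 485.6 and 567.3 TPM at 24 h in leaf, against 249.7, 267.4 and 279.7 TPM at 0 h. It rose in root at 0.5, 3, 24.5 and 48 h, by 1.50 ± 0.13 at 3 h on the log2 scale (adjusted p in limma = 5.5e-06). Thiol protease aleurain (Zm00001eb100260), a vacuolar enzyme, had 34.7, 29.7 and 38.9 TPM at 3 h and 13.8, 22.1 and 21.9 TPM at 48 h in leaf, against 4.20, 5.88 and 5.18 TPM at 0 h. Protein disulfide isomerase 10 (Zm00001eb082680), of a family that forms disulfide bonds in secreted proteins, was not called in root, with 36.5, 41.1 and 36.6 TPM at 3 h, against 31.4, 26.4 and 33.3 TPM at 0 h.

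The transport group held a water channel of the vacuole membrane, tonoplast intrinsic protein 4 or aquaporin TIP4-1 (Zm00001eb284350). Its leaf values, in TPM, were 45.8, 65.4 and 86.7 (0 h), 314.3, 340.3 and 388.7 (0.5 h), 407.8, 400.4 and 424.8 (3 h), 211.5, 199.9 and 223.7 (24 h), 424.1, 493.3 and 206.7 (24.5 h), and 196.5, 224.4 and 512.8 (48 h). In root it had 41.1, 64.9 and 55.6 TPM at 3 h, against 1.74, 1.93 and 5.32 TPM at 0 h, which gave a fitted log2 change of 3.87 ± 0.26 (SE, adjusted p = 5.11e-07). It was called higher in root at each of the 5 times.

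In the chloroplast group, thiamine thiazole synthase (Zm00001eb356910), which makes the thiazole part of vitamin B1, had 1541, 1230 and 1630 TPM at 3 h and 389.8, 468.1 and 350.0 TPM at 24 h in leaf, against 60.5, 98.4 and 169.6 TPM at 0 h. In root it had 19.2, 15.3 and 29.9 TPM at 3 h, against 0.903, 1.96 and 1.14 TPM at 0 h (log2 change 3.24 ± 0.37 by limma, adjusted p = 5.85e-05). LHCB5 in root at 3 h was 11.0, 0.440 and 0 TPM in the same replicates. At 24.5 h, replicate 3 had the most LHCB5 (17.96 TPM) and also the most thiamine thiazole synthase (39.1 TPM). If all LHCB5 in root is counted as leaf RNA, the leaf RNA estimate for this gene at 3 h is 24.5, 0.980 and 0 TPM, of which the first exceeds the 19.2 TPM measured in replicate 1 and was set to leave 0 there. With that estimate subtracted the gene was no longer called at 3 h or 48 h (log2 changes of 1.92 and 1.83). With replicate 1 of 3 h also left out, it was called at both times, with log2 changes of 3.40 and 1.83. The 48 h change was the same with and without that library. At 48 h the estimate was 6.65, 3.84 and 8.84 TPM, of 11.3, 19.0 and 12.1 TPM measured.

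The chloroplast post-illumination chlorophyll fluorescence increase protein (Zm00001eb219530), which affects electron flow in the dark in Arabidopsis, had 495.6, 477.5 and 519.9 TPM at 3 h in leaf, against 41.4, 56.2 and 53.0 TPM at 0 h. Its root values were 7.99, 7.67 and 7.85 TPM at 3 h, against 2.35, 2.91 and 3.39 TPM at 0 h, which gave a fitted log2 change of 1.20 ± 0.22 (SE, adjusted p = 0.00236). The same subtraction left a log2 change of 0.16 at 3 h, which was not called. Here too replicate 1 carried the estimate, at 8.31 TPM against 0.332 and 0 TPM in replicates 2 and 3, and with it left out the change was 1.19 and was called. The calls at 0.5, 24 and 24.5 h were likewise lost with the subtraction (log2 changes of 1.13, 1.03 and 1.26) and made with that library left out. Probable adenylate kinase 6 (Zm00001eb433400), of a family that balances adenine nucleotides, had 68.5, 61.2 and 56.7 TPM at 3 h in leaf, against 18.1, 17.9 and 19.6 TPM at 0 h, and was not called in root, where its fitted changes stayed under 1 on the log2 scale.

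In the signalling group, CBL-interacting protein kinase 10 (Zm00001eb016180), of a family that acts with calcium sensors, had 283.9, 304.7 and 261.0 TPM at 3 h and 134.4, 161.2 and 157.3 TPM at 24 h in leaf, against 73.4, 57.9 and 74.4 TPM at 0 h. In root it had 271.8, 218.3 and 221.8 TPM at 0.5 h, against 86.4, 82.6 and 99.5 TPM at 0 h (log2 change 1.39 ± 0.22 by limma, adjusted p = 0.000993). It was called higher in root at 0.5, 3, 24.5 and 48 h but not at 24 h, where it had 115.0, 90.2 and 124.5 TPM.

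In the RNA group, glycine-rich RNA-binding protein 7 (Zm00001eb134340), whose Arabidopsis namesake is itself under clock control, had 618.0, 607.3 and 669.9 TPM at 3 h and 333.9, 376.2 and 342.8 TPM at 24 h in leaf, against 126.7, 122.4 and 183.5 TPM at 0 h. It rose in root at 0.5 h and 3 h, with 509.6, 461.0 and 509.7 TPM at 3 h, against 207.2, 215.6 and 236.8 TPM at 0 h (log2 change 1.16 ± 0.15 by limma, adjusted p = 0.000136). Across all times its libraries lay between 122.4 and 669.9 TPM in leaf and between 207.2 and 509.7 TPM in root.

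**Figure D4:**
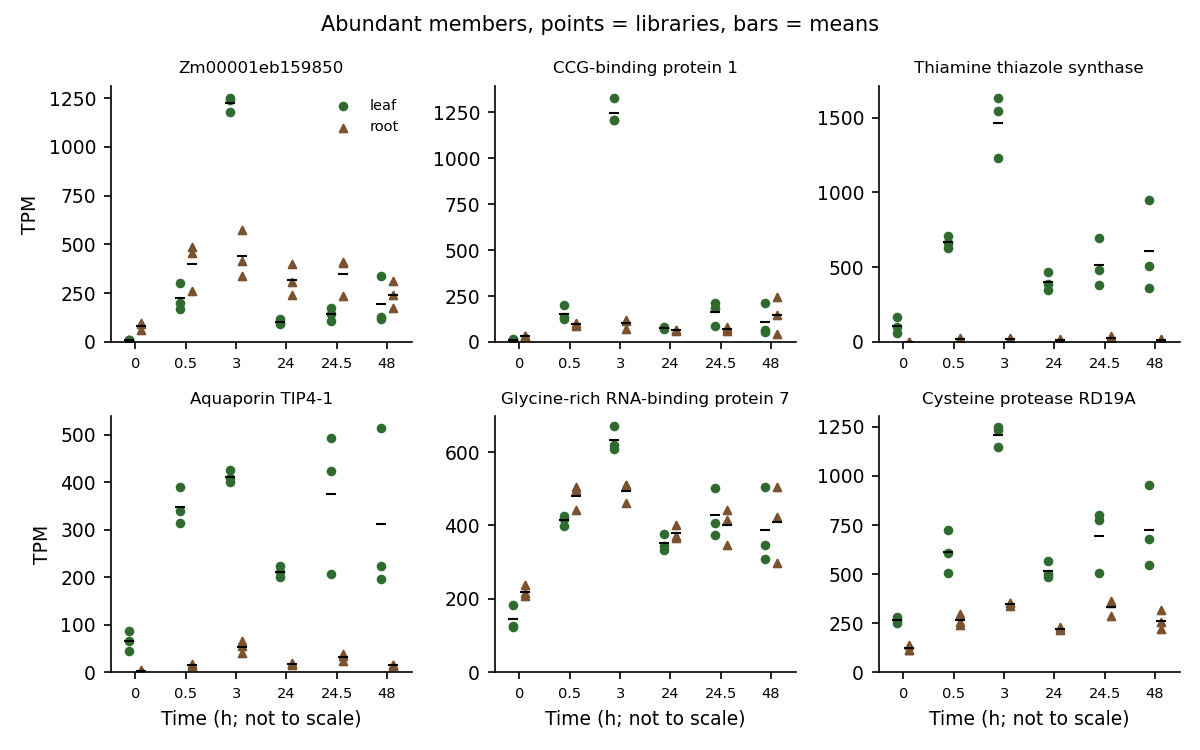
TPM against time of sampling for 6 abundant members, with points for libraries and bars for the mean of 3, leaf as circles and root as triangles. Thiamine thiazole synthase reaches 1230 to 1630 TPM in leaf at 3 h and at most 39.1 TPM in root, whereas glycine-rich RNA-binding protein 7 has 607.3 to 669.9 TPM in leaf and 461.0 to 509.7 TPM in root at 3 h.

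Among named members outside these groups, CCG-binding protein 1 (Zm00001eb214110, chromosome 5, 6356541 to 6357768), named for an Arabidopsis protein of the central cell that takes part in pollen tube guidance, had a smallest rise of 2.50. It had 1210, 1327 and 1206 TPM at 3 h and 72.0, 80.7 and 78.8 TPM at 24 h in leaf, against 11.5, 11.3 and 16.1 TPM at 0 h. Bifunctional nuclease 1 (Zm00001eb135130), which cuts RNA and DNA, had the largest 3 h difference of all members, 8.34 on the log2 scale, with 689.5, 526.9 and 968.8 TPM at 3 h, against 1.24, 1.11 and 1.22 TPM at 0 h. At 24 h it was at 7.92, 4.85 and 5.14 TPM.

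Probable flavin-containing monooxygenase 1 (Zm00001eb320970), of a family of oxidising enzymes, had 118.3, 110.9 and 128.6 TPM at 3 h in leaf, against 0.166, 0.180 and 0.606 TPM at 0 h. At 48 h its libraries spread over 3.88, 0.706 and 25.9 TPM, the lowest of which lay just above the highest 0 h library. A VQ motif protein (Zm00001eb388100), of a family that binds WRKY transcription factors, had 183.1, 170.7 and 217.8 TPM at 3 h, against 6.37, 4.85 and 4.99 TPM at 0 h. It rose in root at 0.5 h and 3 h, by 1.40 ± 0.25 at 3 h on the log2 scale (adjusted p in limma = 0.00177).

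The histone-lysine N-methyltransferase Zm00001eb097830 had 27.8, 25.2 and 28.4 TPM at 3 h and 14.9, 15.3 and 13.8 TPM at 24 h in leaf, against 4.57, 4.28 and 4.66 TPM at 0 h. RLT3 (Zm00001eb061430), a homeobox-DDT domain protein, had 30.0, 26.9 and 31.4 TPM at 3 h, against 3.47, 3.31 and 4.63 TPM at 0 h, and a BTB/POZ domain protein (Zm00001eb281240) had 33.6, 33.0 and 32.5 TPM, against 7.81, 7.20 and 8.36 TPM. None of these 3 was called in root at any time. The DeSI-like protein Zm00001eb074880 (chromosome 2, 21967520 to 21973007), of a family of peptidases that can remove SUMO, had 23.2, 20.7 and 25.6 TPM at 3 h in leaf, against 3.42, 5.53 and 9.46 TPM at 0 h. It was called higher in root at 3 h (log2 change 1.32 ± 0.13 by limma, adjusted p = 1.37e-05) and at 24.5 h.

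Across the whole set, root offered a test that the choice did not use. Of the 150 members, 123 reached 1 TPM in at least 3 root libraries and were tested with 26245 root genes, and 27 averaged under 1 TPM in root at each time. At 0.5 h against 0 h, 43 members (28.7% of 150) were called higher and 0 lower, where 1.77% of all tested genes were called higher and 1.14% lower. At 3 h, 43 were called higher and 0 lower, where 1.12% and 2.6% of all genes were. At 24 h, 27 (18%) were called higher and 0 lower, where 1.19% and 2.58% were.

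After nitrate came back the direction was the same. At 24.5 h against 0 h, 38 members (25.3%) were called higher and 0 lower, where 2.99% and 2.21% of genes were. At 48 h, 25 (16.7%) were called higher and 0 lower, where 1.04% and 2.42% were. The share of members called higher was thus above the share of all genes at each of the 5 times. These 5 comparisons share the 0 h root libraries. Members that were called lower numbered 0 at each time, and 3, 1, 2, 3 and 3 were lower at an unadjusted p under 0.05 in limma, in order of time, beside 18.3%, 16.1%, 21.8%, 14.2% and 16.4% of all genes.

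**Figure D5:**
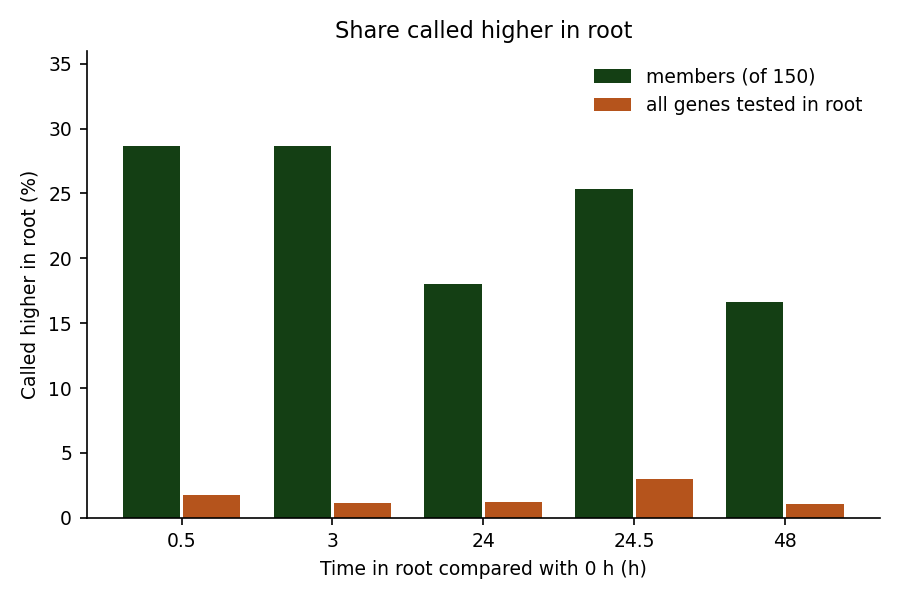
Percent called higher in root against 0 h at each later time, for the members (dark bars, of 150) and for all 26245 genes tested in root (light bars). Members reach 28.7% at 0.5 h and at 3 h, where all genes reach 1.77% and 1.12%.

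The medians over members were lower in root than in leaf. The median root log2 fold change of tested members was 0.72, 0.68, 0.59, 0.75 and 0.57 at the 5 later times in order, beside -0.08, -0.01, -0.08, 0.05 and -0.01 for all tested genes. A filter on root level can favour genes that are high at 1 time, so the medians are a description. Restricted to the 83 members with at least 1 TPM in each 0 h root library, 22, 26, 19, 26 and 18 were called higher at the same times, where 1.34%, 0.891%, 0.961%, 2.34% and 0.795% of the 22892 genes past that limit were. At 1 or more times 64 of the 150 were called higher in root, and 11 at all 5, beside 5.25% and 0.0914% of all tested genes. Those 11 included both Adagio protein 3 genes, Zm00001eb247330, ERDJ3B, TIP4-1, thiamine thiazole synthase and Zm00001eb159850.

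The LHCB5 level in root libraries was low and uneven, at most 2.34% of its leaf level, in replicate 3 of 24.5 h, and whether it was leaf RNA or the root's own transcript was not tested. With the LHCB5-based estimate subtracted from each member, 35, 34, 24, 35 and 22 members were called higher in root at the 5 later times in order, and 0, 0, 0, 1 and 1 lower. Members with a higher mean level in leaf than in root numbered 120 over the later times and 80 at 0 h.

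A few members lay on opposite sides of 0 h in the tissues. Those with all 3 root libraries below the root 0 h libraries, while their leaf libraries were above, numbered 3, 2, 4, 3 and 4 of the 123 tested, from 0.5 h to 48 h in order. Over all tested genes, 22.8%, 18.7%, 24.4%, 15.9% and 15.9% had such lower root libraries at those times.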

How the data were processed

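The deposited values are TPM per gene, which the authors computed; the methods of the study name alignment of untrimmed maize reads to the B73 version 5 genome with STAR and assembly with StringTie, and the submitters' processing notes also name Trimmomatic and DESeq2. Each of the 36 libraries summed to 1000000 TPM, so read depth is unknown and no counting interval is given. Labels and methods differ in kit, sequencer, nutrient solution and plants per pool.

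The members, word groups and lists were chosen with earlier results of these data known. Values were taken as log2(TPM + 1), which understates fold changes of low genes. Genes that reached 1 TPM in 3 or more libraries of a tissue (23268 in leaf, 26245 in root) were fitted in limma 3.58.1 under R 4.3.3, with all 18 libraries of the tissue, 1 coefficient per time and a trended prior variance. P-values were two-sided and adjusted by Benjamini-Hochberg over all tested genes of a contrast. The fit was tested on simulated data. Python 3 scripts made the selection.

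Named genes were the first 2 members, any with a symbol, the 25 annotated members with the largest smallest rise, annotated members among the 5 largest called root changes of each time, and the 5 most abundant annotated ones. LOC numbers in the descriptions were matched to RefSeq genes on NAM-5.0. Sequences were not used here. Alternatives were pseudocounts of 0.1 and 5, filters, median-of-ratios and quantile scaling, replicate number as a block, only the groups compared, a robust prior, adjusted p alone, other limits of the rule, and leaving out each library. Subtraction of an LHCB5-based estimate of leaf RNA, alone or without root replicate 1 of 3 h, was added after seeing the data.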

Additional observations from a re-analysis of the deposited data

Results flagged for a closer look

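The members that lay below 0 h in all 3 root libraries while they lay above 0 h in all 3 leaf libraries are given here because the tissues pointed in opposite directions. Of 123 members tested in root, they numbered 3, 2 and 4 in the deprivation samplings and 3 and 4 in the recovery samplings, in order of time. Over all tested root genes, 22.8%, 18.7%, 24.4%, 15.9% and 15.9% had all libraries below 0 h at these times. The difference between tissues was not tested. None of these genes is described in the sources used here.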

How the results depend on the processing

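The number of leaf genes that met the rule was 228, and became 346 with a pseudocount of 0.1, 96 with a pseudocount of 5 and 136 with a rise of at least 1. Leaving out 1 leaf library at a time gave 182 to 271. For members called higher in root at the 5 later times in order, a pseudocount of 5 gave 19, 26, 11, 19 and 14, adjusted p alone gave 66, 65, 51, 63 and 52, and a mean of at least 5 TPM gave 25 at 0.5 h. The leaf RNA subtraction without root replicate 1 of 3 h gave 38, 40, 26, 37 and 23. Leaving out 1 root library gave 35 to 44, 35 to 43, 19 to 29, 31 to 40 and 23 to 31. For members called lower in root, adjusted p alone gave 1, 0, 1, 2 and 2. A pseudocount of 0.1 gave 1 at 24, 24.5 and 48 h, and the leaf RNA subtraction, with or without root replicate 1 of 3 h, gave 1 at 24.5 and 48 h. Leaving out 1 root library gave 0 to 1 at 24 h and at 24.5 h, with 1 called lower at 24 h without replicate 1 or 2 of 0 h or replicate 3 of 24 h, and at 24.5 h without replicate 2 of 0 h. In leaf, 91 to 102 members were called lower at 24 h against 3 h when 1 library was left out, and 0 to 2 higher at 24.5 h and 0 to 1 at 48 h against 24 h. Of 94 called root fold changes of named genes, 32 missed the threshold under at least 1 alternative and none changed sign. Same-numbered libraries did not deviate together on average (mean correlation 0.015 in leaf and -0.016 in root), so the numbers were not taken to pair libraries. Single pairs ranged from -0.257 to 0.448 in leaf and from -0.346 to 0.187 in root. Of 45 such pairs, 12 in leaf and 7 in root were above 0.1. With the replicate number as a block, 41, 43, 27, 41 and 23 members were called higher in root and 97 lower in leaf at 24 h against 3 h. The cause of these shifts was not tested. Depth is unknown, so it sets no limit that can be stated.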
